A study of Homo sapiens with 12 samples.

Results

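The genes described are the protein subunits of the respiratory chain and ATP synthase, chosen by symbol: the 13 protein-coding genes of the mitochondrial genome and 89 nuclear genes of the NDUFA, NDUFB, NDUFC, NDUFS, NDUFV, SDHA to SDHD, UQCR, COX4 to COX8 and ATP5 families, 102 of the 36315 genes that could be paired with the deposited transcripts. RNA was sequenced from HMC3 cells, an immortalized human microglial line, in 12 libraries. The groups of 3 libraries each were EphB2 + ephrin-B1 siRNA (EphB2-Fc and ephrin-B1 siRNA), EphB2 (EphB2-Fc plus a negative control siRNA), ephrin-B1 siRNA (that siRNA plus Ctrl-Fc) and Ctrl (Ctrl-Fc plus the negative control siRNA). All cells were transfected for 48 h and then received a clustered Fc protein at 2 ug/mL for 24 h, so that each group, Ctrl included, carried an siRNA and an Fc fragment. EphB2-Fc is a soluble form of the Eph receptor that binds ephrin-B ligands on the cell surface. The comparisons ask what EphB2-Fc does, what a partial knockdown of ephrin-B1 does, and whether one depends on the other. The study describes the 3 libraries of a group as biological replicates, all of a single cell line.

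The respiratory chain sits in the inner mitochondrial membrane, where complexes I to IV pass electrons from NADH and succinate to oxygen, complexes I, III and IV pump protons as they do so, and ATP synthase (complex V) uses the proton gradient to make ATP. Complex II is wholly nuclear encoded, whereas the others combine subunits made in the mitochondrion with subunits imported from the cytosol. Mitochondrial DNA is transcribed into long RNAs from both strands that are then cut into single messages, so the RNAs of its genes share their promoters, while each nuclear gene has its own.

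The libraries held between 13230689 and 25785591 estimated counts, the number of reads that kallisto assigned to transcripts. EFNB1, which encodes ephrin-B1, had 6.56, 6.03 and 6.38 CPM (counts scaled to a common library total after TMM normalization) with EphB2 + ephrin-B1 siRNA, 15.6, 18.8 and 18.4 with EphB2, 7.10, 6.60 and 8.70 with ephrin-B1 siRNA, and 20.4, 17.5 and 19.3 in Ctrl, so that every siRNA library was under every library without it. Of 13 microglial markers, 9 reached 10 counts over all libraries and CD68 was among those above 10 CPM in each, whereas AIF1, CX3CR1, C1QA and C1QB had fewer than 10 counts in all. The sum of these markers was 207 to 234 CPM with EphB2 + ephrin-B1 siRNA, 206 to 221 with EphB2, 204 to 206 with ephrin-B1 siRNA and 179 to 180 in Ctrl. Of 10 mesenchymal and pericyte markers, 8 were above 10 CPM in every library, and their sum was 12180 to 16930 CPM, 13438 to 21312 CPM and 12013 to 16365 CPM in the treated groups in the same order and 13070 to 21828 CPM in Ctrl. The part of these markers in the values below was not tested. In bulk RNA, fewer mitochondria, fewer mitochondrial transcripts per organelle and fewer cells that are rich in them cannot be told apart.

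Levels were compared between genes as TPM, in which counts are divided by transcript length and scaled to a common total. The 13 mitochondrial genes had a median of 432 TPM, the mean of the 12 libraries taken for each gene, and the 86 nuclear genes with at least 10 counts had a median of 81.6 TPM. MT-CO1, the catalytic subunit of complex IV (cytochrome c oxidase), was highest at 2655 TPM. The other mitochondrially encoded genes of this complex followed, with 1358 TPM for MT-CO2 and 822 TPM for MT-CO3. MT-ND6, a complex I subunit and the only protein gene read from the opposite strand of the mitochondrial genome, was lowest at 118 TPM. The highest nuclear genes were COX8A at 530 TPM, ATP5MF at 483 TPM and COX6A1 at 437 TPM, which encode small subunits of complex IV and of ATP synthase. These 3 were the only nuclear genes above the mitochondrial median, and 29 were above the lowest mitochondrial gene. Summed over genes, mitochondrial members came to 8699 TPM and nuclear members to 9561 TPM, so 13 genes gave nearly as much RNA on this scale as 89. These levels rest on the annotated transcript lengths.

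**Figure D1:**
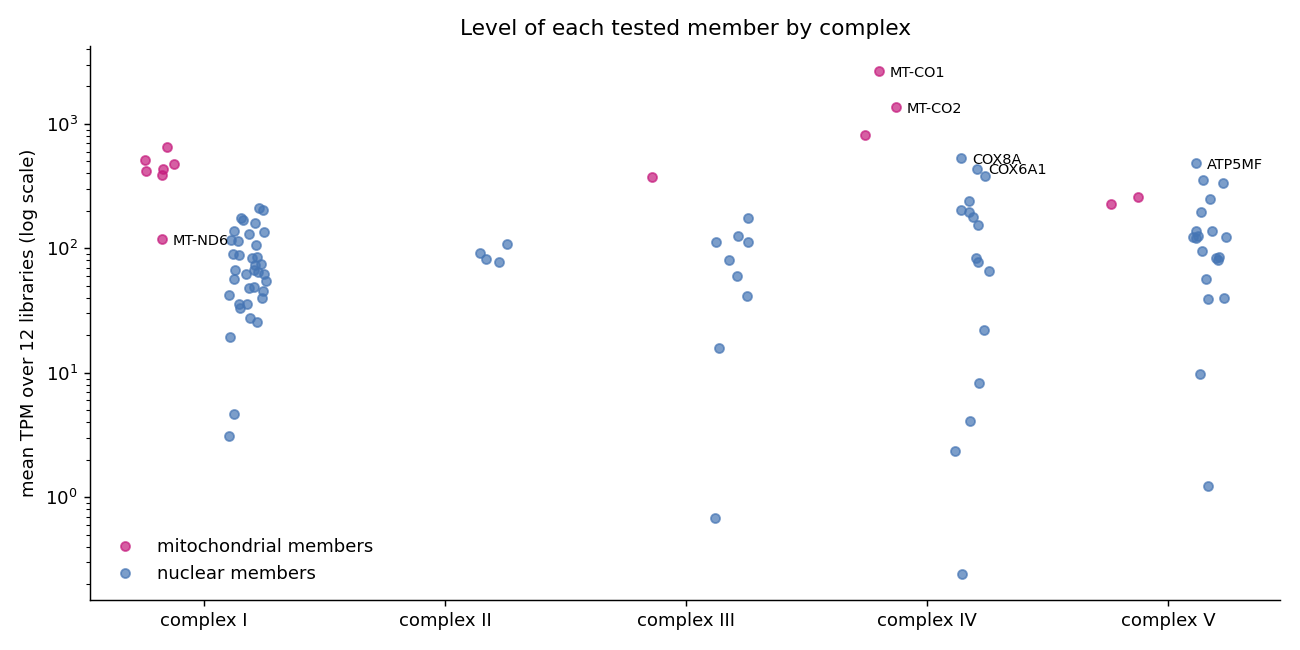
Mean TPM over the 12 libraries (log scale) of each member with at least 10 counts, by complex, with mitochondrial members left and nuclear members right. MT-CO1 stands highest at 2655 TPM, and the nuclear genes run over the wider range, with COX8A at 530 TPM as their highest.

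Within complexes, the nuclear genes of complex II lay close together, with SDHA (the flavoprotein) at 108 TPM, SDHC at 91.0 TPM, SDHD at 81.6 TPM and SDHB (the iron-sulfur subunit) at 78.0 TPM. Complex I ran up to 212 TPM for NDUFC2 and 203 TPM for NDUFA13 and down to 3.12 TPM for NDUFA6. NDUFA6 held 145 counts over all libraries, and transcripts that could not be paired with a gene are left out of these levels. Whether such transcripts held reads of NDUFA6 was not tested. Complex III ran up to 177 TPM for UQCRQ and down to 0.69 TPM for UQCRHL, an intronless relative of UQCRH whose reads may be shared with it. ATP synthase ran up to 483 TPM for ATP5MF and down to 1.24 TPM for ATP5MGL. Paralogs with tissue-specific expression were far below their common partners. Among complex IV genes, COX4I2, COX6A2 and COX8C had 8, 1 and 1 counts over all libraries and were not tested, while COX4I1 had 197 TPM, COX6A1 437 TPM and COX8A 530 TPM. COX7A1, the heart and muscle form, had 2.38 TPM against 177 TPM for COX7A2, and COX7B2 had 0.24 TPM against 84.2 TPM for COX7B. COX6B2, the testis form of COX6B1, varied with the replicate number, with 8.88, 3.57 and 8.02 CPM in replicates 1, 2 and 3 of EphB2 + ephrin-B1 siRNA, 11.9, 3.67 and 7.96 CPM of EphB2, 10.5, 4.44 and 7.12 CPM of ephrin-B1 siRNA and 11.6, 4.75 and 7.26 CPM of Ctrl. Replicate 1 was highest and replicate 2 lowest in each of the 4 groups. The 3 genes for the c subunit of ATP synthase, whose mature proteins are alike, had 356 TPM (ATP5MC2), 126 TPM (ATP5MC1) and 123 TPM (ATP5MC3). The read-through loci NDUFC2-KCTD14 (0.679 to 3.41 CPM over the 12 libraries) and ATP5MF-PTCD1 (9.01 to 19.5 CPM) share sequence with NDUFC2 and ATP5MF, so the split of reads between them is uncertain. NDUFA4L2, a relative of NDUFA4 known to be induced in low oxygen, had 0.885 to 2.36 CPM, and ATP5IF1, the inhibitor of ATP synthase, had 15.2 to 19.9 CPM.

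Some mitochondrial genes overlap, so that their counts cannot be fully separated. MT-ATP8 and MT-ATP6 (subunits 8 and a of ATP synthase) share 46 bases of the heavy-strand message at MT:8527-8572, shown because reads inside it fit both genes, with the start codon of MT-ATP6 and the stop codon of MT-ATP8 in capitals (GRCh38):
MT-ATP8 and MT-ATP6: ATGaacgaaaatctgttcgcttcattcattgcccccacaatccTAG
MT-ND4L and MT-ND4 share 7 bases. Whether the counting used the strand of a read is not given in the sources used here, and without it reads of MT-ND6 and of the opposite strand cannot be told apart. Nuclear copies of mitochondrial genes (404 listed, 55 with at least 10 counts) held 0.902% to 1.24% as many counts as the mitochondrial genes themselves.

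Mitochondrial genes as a group varied strongly between libraries and nuclear genes did not. The 13 mitochondrial members took 0.638%, 0.566% and 0.688% of all counts in replicates 1, 2 and 3 of EphB2 + ephrin-B1 siRNA, 0.686%, 0.365% and 0.704% of EphB2, 0.656%, 0.539% and 0.641% of ephrin-B1 siRNA, and 0.539%, 0.534% and 0.567% of Ctrl. EphB2 replicate 2 stood below all 11 other libraries, and replicates 1 and 3 of the same group were above every Ctrl library. The 89 nuclear members took 0.442% to 0.485% of all counts in the 12 libraries. The ratio of mitochondrial to nuclear counts was 1.42, 1.28 and 1.53 with EphB2 + ephrin-B1 siRNA (mean 1.41 ± 0.13, SD, n = 3), 1.55, 0.83 and 1.54 with EphB2 (1.30 ± 0.41), 1.41, 1.17 and 1.36 with ephrin-B1 siRNA (1.31 ± 0.13) and 1.11, 1.17 and 1.17 in Ctrl (1.15 ± 0.03). All 3 libraries of EphB2 + ephrin-B1 siRNA were above all Ctrl libraries, whereas the other treated groups overlapped Ctrl. Without EphB2 replicate 2 the EphB2 mean was 1.54. No test was run on this ratio. MT-CO1 alone made up 42.4% to 58.0% of the mitochondrial counts, with both extremes in the EphB2 group, the highest share in replicate 2 and the lowest in replicate 3.

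**Figure D2:**
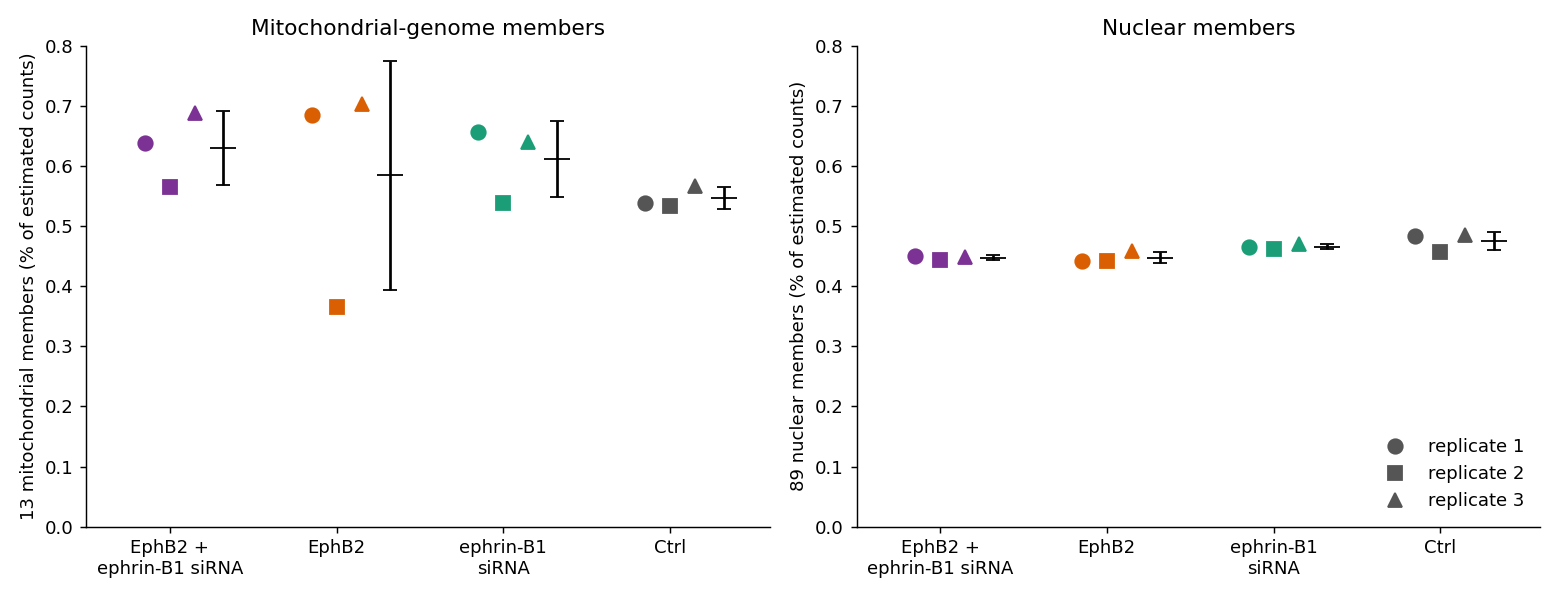
Share of all estimated counts (%) taken by the 13 mitochondrial members (left panel) and the 89 nuclear members (right panel) in each library; symbols mark the replicate number and bars the mean ± SD of 3 libraries. The mitochondrial share is lowest in EphB2 replicate 2 at 0.365%, and the nuclear share lies between 0.442% and 0.485% throughout.

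The low value of EphB2 replicate 2 held for each mitochondrial gene. MT-ND1, a core subunit of complex I, had 244, 113 and 358 CPM with EphB2, against 218, 182 and 235 CPM in Ctrl, and the libraries of the groups overlapped. MT-ND5, another core subunit of complex I, had 498, 266 and 839 CPM with EphB2, against 510, 442 and 585 CPM in Ctrl. MT-ATP6 had 79.7, 40.6 and 129 CPM with EphB2, against 83.4, 76.4 and 94.0 CPM in Ctrl. In each of these genes replicate 2 was the lowest and replicate 3 the highest of the 12 libraries. MT-CYB, the cytochrome b of complex III, had 336, 176 and 378 CPM with EphB2, against 287, 285 and 317 CPM in Ctrl. MT-CO1 was the least reduced in replicate 2, with 3596, 2334 and 3207 CPM with EphB2, against 2746, 3099 and 2865 CPM in Ctrl. Set against the Ctrl library of the same replicate number, 10 of 13 genes were higher in EphB2 replicate 1 (median log2 ratio 0.19), 0 of 13 in replicate 2 (median -0.69) and 13 of 13 in replicate 3 (median 0.46). The median of all genes was within 0.002 of 0 in these pairs.

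**Figure D3:**
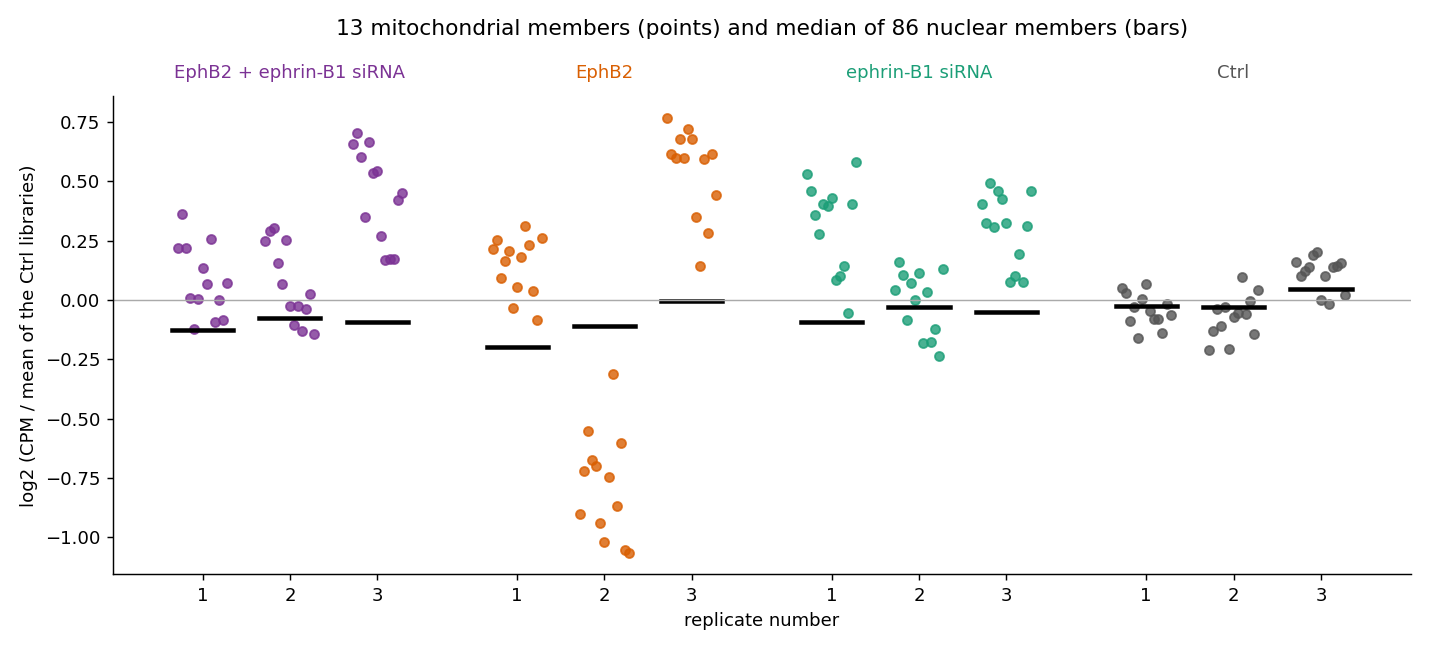
Log2 of the CPM of each of the 13 mitochondrial members over its mean in the Ctrl libraries (points), and the median of the 86 nuclear members tested (black bars), for each library. All 13 points of EphB2 replicate 2 lie below 0, with a median of -0.75, and all 13 of EphB2 replicate 3 above it, with a median of 0.60, while the nuclear medians run between -0.20 and 0.05.

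No mitochondrial gene passed the threshold in EphB2- vs Ctrl-treated cells by edgeR's quasi-likelihood test (Benjamini-Hochberg adjusted p under 0.05), and 0 of 13 had an unadjusted p under 0.05, where 4.07% of all genes were higher and 3.49% lower at that level. DESeq2 called 0 as well. The fitted log2 fold changes ran between -0.05 and 0.17 with a median of 0.07, and 11 of 13 were above 0, against 51.4% of all 21601 genes tested. The log2 fold change of MT-ND1 was estimated at 0.17 (SE 0.31, adjusted p = 0.97 in edgeR). Direction rested on single libraries. Without EphB2 replicate 2 the median was 0.38 with 13 of 13 above 0, 5 of them at an unadjusted p under 0.05 and a lowest adjusted p of 0.51, and without EphB2 replicate 3 the median was -0.22. With the replicate number as a block in the fit, the median was 0.03, and by limma on log2(TPM + 1) it was -0.07.

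Mitochondrial genes were somewhat higher in both groups with ephrin-B1 siRNA than in Ctrl, by amounts that did not pass the test. They largely moved together within a library, so counts of genes above 0 add no replication to the 3 libraries of a group. In replicates 1, 2 and 3, 10, 7 and 13 of 13 were above their Ctrl mean with EphB2 + ephrin-B1 siRNA. The counts were 12, 7 and 13 with ephrin-B1 siRNA and 4, 2 and 12 in Ctrl itself. In EphB2 + ephrin-B1 siRNA vs Ctrl the median log2 fold change was 0.17 and 12 of 13 were above 0, against 50.2% of all genes, with 0 past the threshold and 0 at an unadjusted p under 0.05, where 6.05% of all genes were higher and 7.28% lower at that level. MT-ND2, a core subunit of complex I, had 333, 316 and 420 CPM with EphB2 + ephrin-B1 siRNA, against 264, 236 and 277 CPM in Ctrl, groups that did not overlap, and was fitted at 0.46 on the log2 scale (SE 0.25, adjusted p = 0.50 in edgeR and 0.076 with the replicate block). In ephrin-B1 siRNA vs Ctrl the median was 0.28 and 11 of 13 were above 0, against 49.4% of all genes, again with 0 past the threshold and 0 at an unadjusted p under 0.05, where 5.81% were higher and 6.27% lower. DESeq2 called 0 of 13 in both. MT-ND3 had 87.9, 73.8 and 96.5 CPM with ephrin-B1 siRNA, against 64.6, 66.9 and 74.7 CPM in Ctrl, and was fitted at 0.32 on the log2 scale (SE 0.23, adjusted p = 0.66 in edgeR). Only its siRNA replicate 2, at 73.8 CPM, lay under the highest Ctrl library. In each of these comparisons 3 of 13 mitochondrial genes had groups that did not overlap, all higher with siRNA, where 9.05% of all genes were higher without overlap in EphB2 + ephrin-B1 siRNA vs Ctrl and 9.16% in ephrin-B1 siRNA vs Ctrl. The 7 complex I genes had median log2 fold changes of 0.27 and 0.31 in these comparisons. Among the others, MT-ATP8 had 0.14 and 0.40, the second of which was above all complex I genes, MT-ATP6 0.13 and 0.18, MT-CO1 0.14 and 0.08, MT-CO2 -0.01 and 0.06, MT-CO3 0.04 and -0.04, and MT-CYB 0.08 and -0.00. Whether complex I genes differed from the others was not tested.

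Between treated groups, the mitochondrial genes had a median log2 fold change of -0.00 with EphB2 + ephrin-B1 siRNA set against ephrin-B1 siRNA alone, with 6 of 13 above 0, and of 0.12 in EphB2 + ephrin-B1 siRNA vs EphB2, with 12 of 13 above 0, against 50.1% and 47.1% of all genes. The second value turned to -0.17, with 2 of 13 above 0, when EphB2 replicate 2 was left out. A further contrast, the interaction, took the EphB2-Fc effect under ephrin-B1 siRNA minus that under control siRNA. Its median was -0.07, with 2 of 13 above 0 against 48.1% of all genes, and it turned to -0.39 without EphB2 replicate 2. In these 3 contrasts 0 of 13 passed the threshold and 0 had an unadjusted p under 0.05 by edgeR, and DESeq2 called 0.

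Nuclear genes lay slightly and broadly lower with EphB2-Fc, by an amount that took no single gene past the threshold without the replicate block. They were read from the same libraries, so counts of genes below 0 add no replication to the 3 libraries of a group. In EphB2- vs Ctrl-treated cells 72 of 86 were below 0, with a median log2 fold change of -0.11, while 51.4% of all genes were above 0 and their median was 0.01. By edgeR 0 passed the threshold, where 0.037% of all genes did and 0.0139% fell. At an unadjusted p under 0.05, 8 were lower and 1 higher (3.49% and 4.07% of all genes), and DESeq2 called 0. With the replicate block 4 fell, where 5.34% of all genes passed in either direction and 3.2% fell. These were COX7A2L, a factor that joins complexes III and IV into supercomplexes, SDHC, a membrane anchor of complex II, NDUFV1, the subunit of complex I that binds NADH, and NDUFA13, an accessory subunit of complex I. SDHC had 112.5, 113.7 and 105.1 CPM with EphB2, against 126.9, 125.7 and 120.8 CPM in Ctrl, and the groups did not overlap. The fit gave -0.17 on the log2 scale (SE 0.06, adjusted p = 0.46 in edgeR), and with the block it fell by 0.17 (SE 0.04, adjusted p = 0.017). COX7A2L had 60.2, 72.6 and 69.2 CPM with EphB2, against 73.4, 82.6 and 81.7 CPM in Ctrl, and was fitted at -0.24 (adjusted p = 0.56 in edgeR and 0.0089 with the block). NDUFV1 had -0.20 and NDUFA13 -0.24 without the block, and both had an adjusted p of 0.039 with it. In all, 10 nuclear genes were lower and 1 higher with no overlap of the groups, against 5.93% and 6.62% of all genes.

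These lower values were spread over the complexes. In EphB2 vs Ctrl the median log2 fold change was -0.09 for complex I (32 of 37 below 0), -0.10 for complex II (3 of 4), -0.11 for complex III (8 of 9), -0.12 for complex IV (13 of 16) and -0.09 for ATP synthase (16 of 20). NDUFA8, an accessory subunit of complex I, was the exception that stood higher without overlap, with a log2 fold change of 0.18 (unadjusted p = 0.035, adjusted p = 0.63 in edgeR). By replicate number, the nuclear median was -0.19 in replicate 1 (12 of 86 higher), -0.06 in replicate 2 (29 of 86) and -0.05 in replicate 3 (29 of 86). Without EphB2 replicate 1 the fitted median was -0.05 and without EphB2 replicate 2 it was -0.12. The mean fragment length of the libraries, as the effective lengths give it, was 236, 239 and 225 bases with EphB2, against 229, 224 and 222 bases in Ctrl, longer in each pair. With an offset for transcript length in the fit the median was -0.10. The part of fragment length in these values was otherwise not tested.

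**Figure D4:**
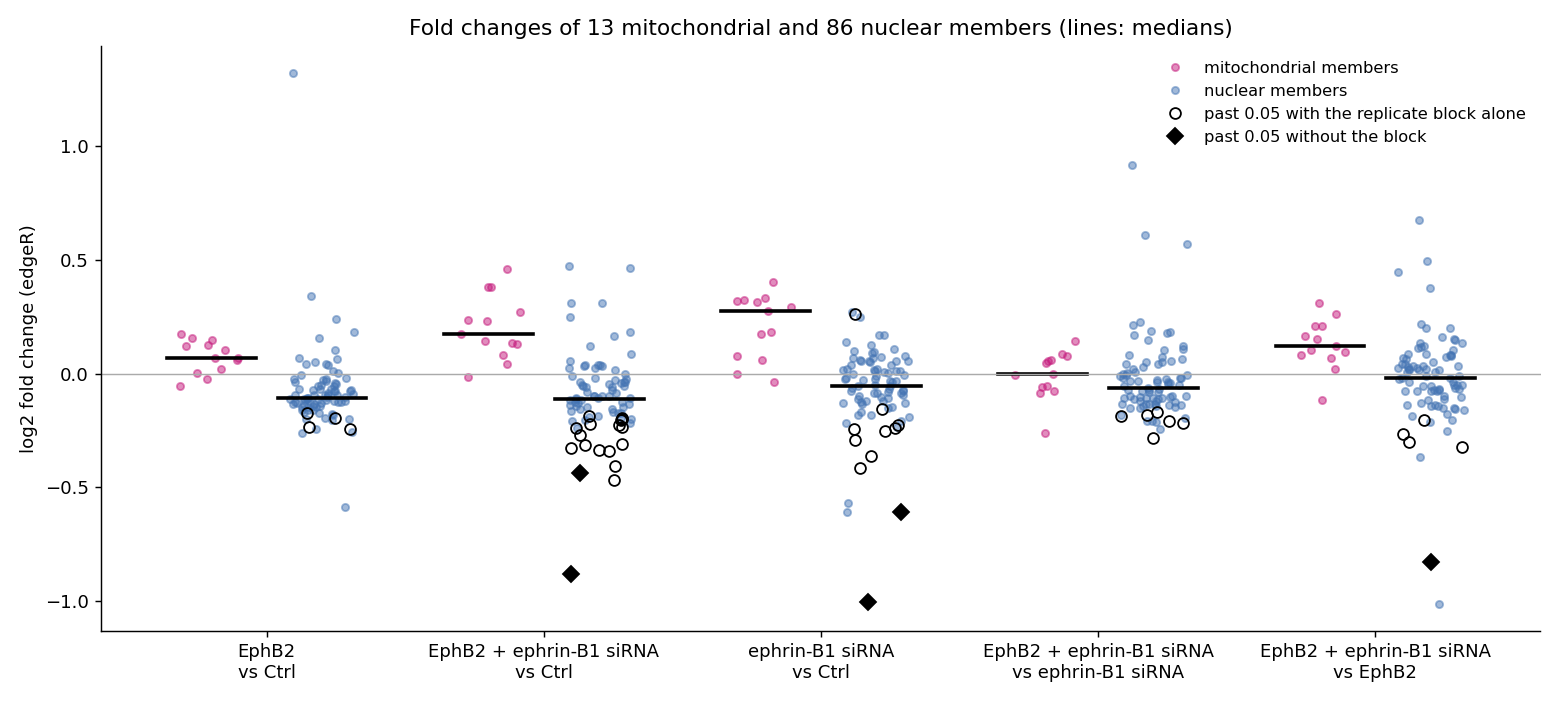
Log2 fold change (edgeR) of the 13 mitochondrial and 86 nuclear members in the 5 comparisons, with medians as lines. Black diamonds passed the threshold without the replicate block and open circles with it alone; ATP5F1E is the lowest diamond in each comparison with ephrin-B1 siRNA, at -0.88 for EphB2 + ephrin-B1 siRNA vs Ctrl and -0.83 vs EphB2.

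With EphB2 + ephrin-B1 siRNA set against ephrin-B1 siRNA alone, where both groups carry the siRNA, 61 of 86 nuclear genes were below 0 with a median of -0.07, against 50.1% of all genes above 0. By edgeR 0 passed, where 0.116% of all genes did and 0.0324% fell. At an unadjusted p under 0.05, 3 were lower and 1 higher (4.39% and 4.07% of all genes), and DESeq2 called 0. With the block 6 fell, where 6.93% of all genes passed and 4.11% fell: ATP5MC2 (log2 fold change -0.21, adjusted p = 0.012), SDHC (-0.17, 0.017), NDUFB5 (-0.22, 0.019), COX7A2L (-0.18, 0.036), NDUFA7 (-0.29, 0.036) and NDUFV3 (-0.19, 0.046). SDHC and COX7A2L thus fell in both comparisons of EphB2-Fc with Ctrl-Fc when the block was used. These comparisons share no library but come from 1 fit with a shared estimate of spread. SDHC passed in 2 of 26 alternative fits in each comparison. COX7A2L passed in 2 of 26 in EphB2 vs Ctrl and in 1 of 26 in the other. With the block but without replicate 3 in every group, 0 members passed in either. SDHC had 108.1, 109.1 and 102.8 CPM with EphB2 + ephrin-B1 siRNA, against 120.3, 122.5 and 116.5 CPM with ephrin-B1 siRNA, again without overlap. In the interaction 0 nuclear genes passed, where 0.0% of all genes did without the block and 0.00463% with it. There 1 nuclear gene (ATP5MG) was higher at an unadjusted p under 0.05, where 1.13% of all genes were higher and 1.17% lower, and DESeq2 called 0. No overlap of the groups was seen for 9 lower and 3 higher nuclear genes with EphB2 + ephrin-B1 siRNA set against ephrin-B1 siRNA alone (7.31% and 7.26% of all genes).

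Among members past the threshold, the largest change came with ephrin-B1 siRNA and was in ATP synthase. ATP5F1E encodes the epsilon subunit of its central stalk, the smallest subunit of the catalytic part. It had 75.0, 58.2 and 70.4 CPM with EphB2 + ephrin-B1 siRNA (67.9 ± 8.7, SD, n = 3), 111.4, 109.8 and 140.3 CPM with EphB2 (120.5 ± 17.1), 64.6, 59.1 and 63.5 CPM with ephrin-B1 siRNA (62.4 ± 2.9) and 129.4, 117.5 and 128.5 CPM in Ctrl (125.1 ± 6.6). Every siRNA library was under every library without it. In ephrin-B1 siRNA vs Ctrl it fell by 1.00 on the log2 scale, a fold of 0.499 (SE 0.11, adjusted p = 0.0021 in edgeR). Between EphB2 + ephrin-B1 siRNA and EphB2 it fell by 0.83 (SE 0.11, adjusted p = 0.016), and in EphB2 + ephrin-B1 siRNA vs Ctrl by 0.88 (SE 0.11, adjusted p = 0.0037). The comparisons against Ctrl share their Ctrl libraries. EphB2 vs Ctrl gave -0.05 (adjusted p = 0.97). The call in EphB2 + ephrin-B1 siRNA vs EphB2 was lost without EphB2 replicate 3 (0.058), EphB2 + ephrin-B1 siRNA replicate 2 (0.055) or its replicate 3 (0.12). The gene lies at chr20:59025475-59032345 on the minus strand (GRCh38). Its MANE transcript ATP5F1E-201, with 77.6% of the counts of the gene, averaged 54.3 CPM with EphB2 + ephrin-B1 siRNA, 94.4 CPM with EphB2, 44.9 CPM with ephrin-B1 siRNA and 98.7 CPM in Ctrl. ATP5F1E-202, with 21.5%, averaged 13.2, 25.2, 17.1 and 24.8 CPM in the same groups and was lower with the siRNA as well.

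ATP5MG encodes subunit g, a membrane subunit of ATP synthase that takes part in its dimers. It had 45.8, 44.3 and 44.7 CPM with EphB2 + ephrin-B1 siRNA (44.9 ± 0.8, SD, n = 3), 48.3, 55.6 and 58.4 CPM with EphB2 (54.1 ± 5.2), 37.6, 42.3 and 40.0 CPM with ephrin-B1 siRNA (40.0 ± 2.3) and 57.9, 60.4 and 64.3 CPM in Ctrl (60.8 ± 3.2). The siRNA libraries were again under all libraries without it. It fell by 0.61 on the log2 scale in ephrin-B1 siRNA vs Ctrl (SE 0.08, adjusted p = 0.0041 in edgeR) and by 0.44 in EphB2 + ephrin-B1 siRNA vs Ctrl (SE 0.08, adjusted p = 0.018). Between EphB2 + ephrin-B1 siRNA and EphB2 its log2 fold change was -0.27 (adjusted p = 0.20), and with the block it fell by 0.26 (adjusted p = 0.014). The gene lies at chr11:118401346-118433278 on the plus strand (GRCh38). The MANE transcript ATP5MG-201, with 79.2% of the counts, averaged 34.5 CPM with EphB2 + ephrin-B1 siRNA, 43.4 CPM with EphB2, 31.0 CPM with ephrin-B1 siRNA and 49.6 CPM in Ctrl, whereas ATP5MG-204, with 16.5%, had 8.43, 8.41, 7.35 and 8.48 CPM. With an offset for transcript length the call of ATP5MG was lost against Ctrl in both comparisons (adjusted p = 0.081 with ephrin-B1 siRNA and 0.33 with EphB2 + ephrin-B1 siRNA), that of ATP5F1E was not. The call in EphB2 + ephrin-B1 siRNA vs Ctrl was also lost without Ctrl replicate 2 (0.071) or 3 (0.11) and without EphB2 + ephrin-B1 siRNA replicate 2 (0.067) or 3 (0.11). All groups with the siRNA carry the same siRNA label, so an effect of the reagent beyond ephrin-B1 and the knockdown of ephrin-B1 cannot be told apart.

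**Figure D5:**
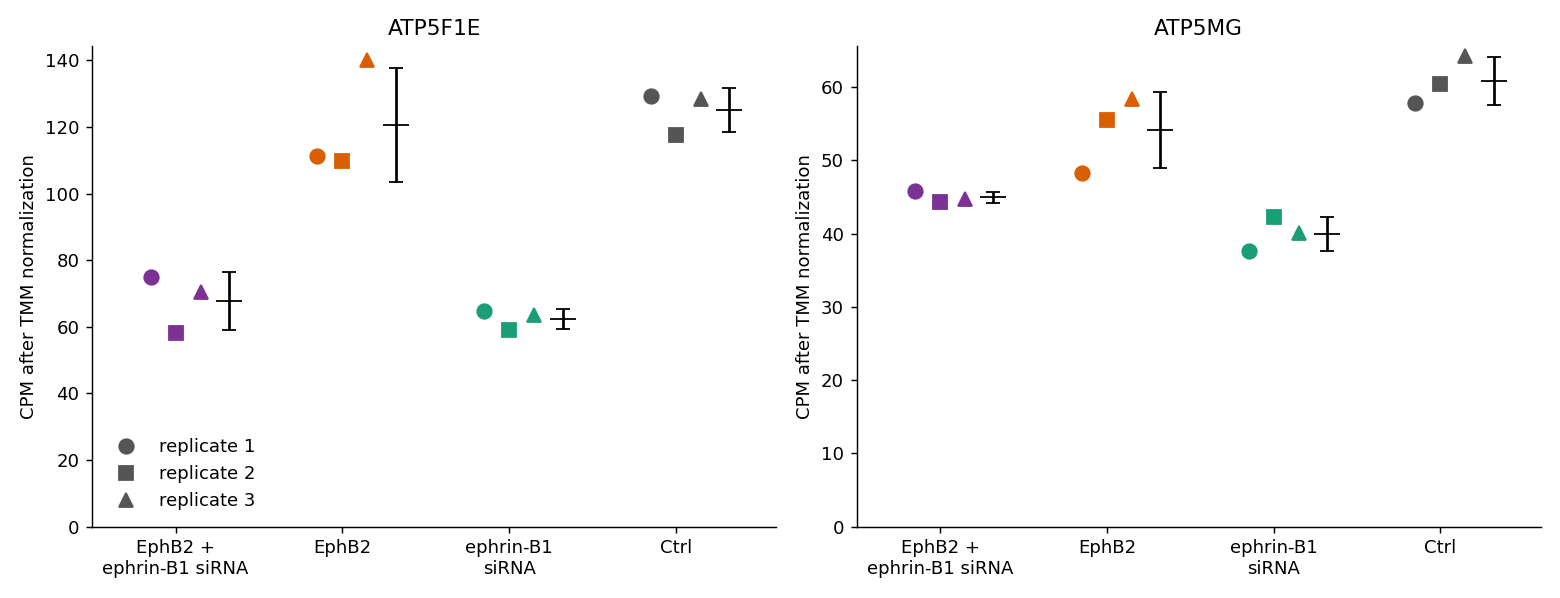
CPM of ATP5F1E (left panel) and ATP5MG (right panel) in each library; symbols mark the replicate number and bars the mean ± SD of 3 libraries. The 6 libraries with ephrin-B1 siRNA lie under the 6 without it in both genes, with 58.2 to 75.0 CPM against 109.8 to 140.3 CPM for ATP5F1E.

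With ephrin-B1 siRNA vs Ctrl these were the only members past the threshold by edgeR, 2 of 99, where 1.81% of all genes passed and 1.15% fell. In EphB2 + ephrin-B1 siRNA vs Ctrl they were also the 2 called, where 2.01% passed and 1.27% fell, and in EphB2 + ephrin-B1 siRNA vs EphB2 ATP5F1E was the 1 called, where 0.616% passed and 0.407% fell. At an unadjusted p under 0.05, 8 nuclear genes were lower and 1 higher of 86 in the first of these comparisons, where 6.27% of all genes were lower and 5.81% higher. In the second, 17 were lower and 0 higher (7.28% and 6.05% of all genes), and in the third 5 and 3 (5.67% and 4.73%). Over the nuclear genes, 54 of 86 were below 0 in ephrin-B1 siRNA vs Ctrl with a median of -0.05 (0.14 by limma on log2(TPM + 1), where the median of all genes was 0.12), 67 of 86 in EphB2 + ephrin-B1 siRNA vs Ctrl with a median of -0.11, and 46 of 86 in EphB2 + ephrin-B1 siRNA vs EphB2 with a median of -0.02, against 49.4%, 50.2% and 47.1% of all genes above 0. No overlap of the groups was seen for 13 lower and 4 higher nuclear genes in the first of these comparisons (8.89% and 9.16% of all genes), 17 and 1 in the second (9.27% and 9.05%) and 7 and 3 in the third (7.65% and 6.89%).

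With the replicate block more nuclear genes passed. In ephrin-B1 siRNA vs Ctrl 10 fell, where 13.6% of all genes passed, 7.06% falling and 6.51% rising. Among the 10 were 5 of ATP synthase: ATP5F1E, ATP5MG, ATP5PO (-0.29), a subunit of the peripheral stalk once named OSCP, ATP5MC1 (-0.23), a c subunit gene, and ATP5PF (-0.25), another peripheral stalk subunit. ATP5PO had 82.5, 88.9 and 92.0 CPM with ephrin-B1 siRNA, against 104.4, 105.2 and 112.7 CPM in Ctrl, without overlap (adjusted p = 0.12 in edgeR without the block and 0.0033 with it). The others were the complex I subunits NDUFB10 (-0.41) and NDUFB6 (-0.23), the complex III subunits UQCRC1 (-0.24) and UQCRH (-0.36), and COX7A2L (-0.16). Against Ctrl, EphB2 + ephrin-B1 siRNA had 18 nuclear genes that fell and 0 that rose with the block, where 15.1% of all genes passed and 9.04% fell. These included 6 of ATP synthase, 4 of complex I, 4 of complex IV, 3 of complex III and SDHC of complex II, with log2 fold changes between -0.18 for COX4I1 and -0.88 for ATP5F1E. NDUFB10 had 29.7, 26.1 and 30.7 CPM with EphB2 + ephrin-B1 siRNA, against 43.0, 33.8 and 43.0 CPM in Ctrl, without overlap (-0.46, adjusted p = 0.00066 with the block and 0.12 without it). Between EphB2 + ephrin-B1 siRNA and EphB2, 5 fell with the block, where 9.93% of all genes passed and 5.4% fell: ATP5F1E, ATP5MG, ATP5MC2 (-0.20), NDUFB10 (-0.32) and NDUFA4 (-0.31), a complex IV subunit once assigned to complex I.

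Promoter sequence was also described for the nuclear genes. In RefSeq windows of 300 bases around the start (GRCh38.p14), found for 70 of the 89 nuclear members, the letters of 3 factors known to act at such genes were searched on both strands. GCGCANGCG, a site of NRF1 whose matches on the 2 strands can overlap, was in 31.4% of the member windows and 8.05% of all 27305 windows. CCGGAAG, a core of ETS factors such as GABPA, was in 28.6% and 10.7%. AANATGGCG, a site of YY1, was in 22.9% and 3.37%. At least 1 of the 3 was in 42 of the 70 member windows (60%) and in 19.2% of all windows. All windows were not limited to genes expressed in these cells, and whether other active genes hold these sites as often was not tested. The window of ATP5F1E, which fell most, held none of the 3. That of ATP5MG held 1 ETS match, read on the opposite strand. NDUFB4, an accessory subunit of complex I that did not pass in any comparison, is shown for its 4 NRF1 matches, of which 2 overlap on opposite strands. Whether matches go with the changes of the genes was not tested. Matches are in capitals and each sequence reads 5′ to 3′ on the strand of the gene.
ATP5F1E (chr20:59032286-59032585, minus strand): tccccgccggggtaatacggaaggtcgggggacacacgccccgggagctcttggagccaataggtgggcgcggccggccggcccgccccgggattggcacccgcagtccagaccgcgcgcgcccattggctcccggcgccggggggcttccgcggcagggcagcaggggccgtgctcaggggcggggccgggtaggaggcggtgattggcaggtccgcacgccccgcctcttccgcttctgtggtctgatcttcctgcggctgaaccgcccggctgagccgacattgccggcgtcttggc
ATP5MG (chr11:118401356-118401655, plus strand): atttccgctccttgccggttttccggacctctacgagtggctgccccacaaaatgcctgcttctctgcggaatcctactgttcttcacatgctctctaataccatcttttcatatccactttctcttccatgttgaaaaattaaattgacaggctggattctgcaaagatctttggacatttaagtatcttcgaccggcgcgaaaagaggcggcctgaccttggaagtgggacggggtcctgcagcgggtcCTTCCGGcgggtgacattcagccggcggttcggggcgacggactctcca
NDUFB4 (chr3:120596086-120596385, plus strand): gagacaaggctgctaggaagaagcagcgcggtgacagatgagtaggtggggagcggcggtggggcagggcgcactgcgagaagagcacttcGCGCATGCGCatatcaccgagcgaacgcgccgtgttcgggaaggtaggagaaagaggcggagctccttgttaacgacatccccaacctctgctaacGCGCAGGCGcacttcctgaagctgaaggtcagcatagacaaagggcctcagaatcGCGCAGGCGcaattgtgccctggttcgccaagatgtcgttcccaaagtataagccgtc

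Other genes of the mitochondrial expression system gave few calls without the replicate block, where 0.0% to 2.01% of all genes passed in a comparison. Of 54 assembly factors of the complexes, 21 genes of mitochondrial DNA upkeep and transcription, 13 regulators of mitochondrial biogenesis, 9 further genes that feed electrons to the chain and the 55 nuclear copies tested, 0 passed in any comparison by edgeR. Of 22 genes of mitochondrial RNA processing and decay, PNPT1 rose in EphB2 vs Ctrl and in EphB2 + ephrin-B1 siRNA vs Ctrl, which share the Ctrl libraries. It encodes the polynucleotide phosphorylase of mitochondria, an RNA-degrading enzyme known to be induced by interferon. It had 75.1, 96.4 and 86.1 CPM with EphB2, against 55.9, 56.1 and 52.9 CPM in Ctrl (log2 fold change 0.64, SE 0.09, adjusted p = 0.037 in edgeR), and 82.8, 87.7 and 79.4 CPM with EphB2 + ephrin-B1 siRNA (0.60 against Ctrl, adjusted p = 0.0054). Set against ephrin-B1 siRNA alone, with 61.8, 61.9 and 58.5 CPM, EphB2 + ephrin-B1 siRNA had a log2 fold change of 0.46 that did not pass (adjusted p = 0.097 in edgeR, and 0.00082 with the replicate block). EphB2 replicate 2, the library with the fewest mitochondrial counts, had the highest PNPT1, and any relation of the 2 values was not tested. The call in EphB2 vs Ctrl was lost without any 1 library other than EphB2 replicate 1, with adjusted p between 0.052 (without EphB2 + ephrin-B1 siRNA replicate 2) and 0.30 (without Ctrl replicate 3). HSD17B10, part of mitochondrial RNase P, which cuts the 5′ ends of tRNAs out of the long RNAs, rose with ephrin-B1 siRNA, with 53.3, 45.8 and 49.0 CPM, against 38.6, 33.7 and 37.3 CPM in Ctrl (0.44, adjusted p = 0.022). Of 82 mitochondrial ribosomal proteins, MRPL11 fell in ephrin-B1 siRNA vs Ctrl (43.3, 33.8 and 37.2 CPM, against 64.6, 57.3 and 58.6 CPM in Ctrl, log2 fold change -0.66, adjusted p = 0.014) and in EphB2 + ephrin-B1 siRNA vs Ctrl (-0.66, adjusted p = 0.011), and DAP3 fell in ephrin-B1 siRNA vs Ctrl (-0.43, adjusted p = 0.027). The call of HSD17B10 was lost without Ctrl replicate 2 or 3 or ephrin-B1 siRNA replicate 1 or 3 (adjusted p of 0.080 to 0.11). That of MRPL11 was lost in ephrin-B1 siRNA vs Ctrl without Ctrl replicate 3 or ephrin-B1 siRNA replicate 2 or 3 (0.059 to 0.079), and in the other comparison without Ctrl replicate 3 or EphB2 + ephrin-B1 siRNA replicate 3 (0.051 and 0.076). That of DAP3 was lost without any 1 of the Ctrl libraries, ephrin-B1 siRNA replicate 2 or 3 or EphB2 + ephrin-B1 siRNA replicate 3 (0.058 to 0.14). With the replicate block more of these genes passed. In EphB2 + ephrin-B1 siRNA vs Ctrl, 15.1% of all genes passed with the block and 9.04% fell. Lower there were 4 assembly factors, 9 ribosomal proteins, 2 RNA processing genes, 1 upkeep gene and 3 of the 9 further chain genes. Higher were 2 ribosomal proteins, 6 RNA processing genes and 3 regulators.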

How the data were processed

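RNA of HMC3 cells was measured after depletion of ribosomal RNA. The authors quantified reads with kallisto (version not given in the sources used here) against the Ensembl 109 cDNA of GRCh38. The authors deposited an estimated count per transcript, an expected count that kallisto derives without further normalization, and the TPM computed from it and the effective length, in 1 table per library. Of 188753 transcripts, 167067 (88.5%) were paired with 36315 genes of GENCODE 44, and 95.25% to 95.98% of the counts were kept. Transcripts of a gene were added up and the sums rounded to whole numbers.

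The 21601 genes that reached 10 counts in all libraries together entered edgeR 4.0.16 (quasi-likelihood test, TMM scaling, 1 model for the 4 groups), with Benjamini-Hochberg adjustment over all genes with a threshold of 0.05. The members and gene lists were chosen with earlier results of these data known. Genes are named where they are mitochondrial, passed in any comparison, were among the 5 smallest p of one, were the highest or lowest of a complex, or are paralogs, and in the other lists where they passed. Members that passed with the block alone, NDUFA13 as second highest of complex I, and NDUFB4 were chosen after their values were seen. Some genes that these rules or lists include are not reported here. Alternatives were the replicate number as a block, DESeq2 1.42.0, its size factors in edgeR, library sizes without mitochondrial genes, other filters, a length offset, limma 3.58.1 on log2(TPM + 1), only the groups compared, and leaving out libraries or replicate numbers. R 4.3.3 and Python 3.11.15 were used, and the code was tested on simulated data.

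The submitted names give the libraries of a replicate number the same experiment number, and they were taken as pairs. Deviations from group means correlated at 0.47 to 0.56 between libraries of replicate 1, 0.50 to 0.56 of replicate 2 and 0.03 to 0.09 of replicate 3. Replicate 3 is thus paired by its name and not by the values. Values in CPM follow TMM scaling, except those of the cell type markers, which use the library total alone. Each error given is an SD across libraries or an SE from the fit. Without the replicate block, p-values rest on the spread from experiment to experiment in a single cell line. With the block, they rest on the spread that remains once differences between replicate numbers are taken out.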

Additional observations from a re-analysis of the deposited data

Results flagged for a closer look

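ATP5MG, ATP5PF and NDUFA7 had opposite directions in every same-numbered pair of libraries, judged by the effect of a treatment without and with the other. The search covered 38 members, the mitochondrial genes and the nuclear genes past the threshold in any comparison with or without the replicate block. The nuclear genes entered by their values in these same libraries, so their opposite directions can in part follow from that selection. Of these 38, 2 were opposite in all pairs for EphB2-Fc and 2 for ephrin-B1 siRNA. The same count was not made over all genes. ATP5MG was lower with EphB2 than in Ctrl in 3 of 3 pairs (log2 ratios -0.26, -0.12 and -0.14) and higher with EphB2 + ephrin-B1 siRNA than with ephrin-B1 siRNA in 3 of 3 (0.28, 0.07 and 0.16). The difference itself, tested as the interaction in edgeR, was 0.34 (SE 0.11, unadjusted p = 0.012, adjusted p = 1.00). ATP5PF, a peripheral stalk subunit of ATP synthase, was lower with EphB2 than in Ctrl (-0.07, -0.12 and -0.02) and higher with EphB2 + ephrin-B1 siRNA than with ephrin-B1 siRNA (0.19, 0.10 and 0.34). It was also lower with ephrin-B1 siRNA than in Ctrl (-0.26, -0.14 and -0.34) and higher with EphB2 + ephrin-B1 siRNA than with EphB2 (0.01, 0.08 and 0.02). Its interaction was 0.28 (unadjusted p = 0.086, adjusted p = 1.00 in edgeR). NDUFA7, an accessory subunit of complex I, was higher with ephrin-B1 siRNA than in Ctrl (0.22, 0.11 and 0.18) and lower with EphB2 + ephrin-B1 siRNA than with EphB2 (-0.01, -0.22 and -0.19). Its interaction was -0.33 (unadjusted p = 0.17, adjusted p = 1.00 in edgeR). None of these differences passed the test, with the replicate block either (adjusted p of 0.55, 0.65 and 0.65 for ATP5MG, ATP5PF and NDUFA7).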

How the results depend on the processing

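With the replicate block 4 members passed in EphB2 vs Ctrl, 18 in EphB2 + ephrin-B1 siRNA vs Ctrl, 11 in ephrin-B1 siRNA vs Ctrl, 6 with EphB2 + ephrin-B1 siRNA set against ephrin-B1 siRNA alone and 5 in EphB2 + ephrin-B1 siRNA vs EphB2, against 0, 2, 2, 0 and 1 without it. With the block in DESeq2 these counts were 4, 14, 7, 2 and 6, and with the block but without replicate 3 in every group 0, 5, 4, 0 and 1. DESeq2 without the block called 7 in EphB2 + ephrin-B1 siRNA vs Ctrl and 6 in ephrin-B1 siRNA vs Ctrl. The length offset left 1 in each of these. With only the groups compared 1 passed in EphB2 + ephrin-B1 siRNA vs Ctrl and 0 in EphB2 + ephrin-B1 siRNA vs EphB2, and limma on log2(TPM + 1) called 0 throughout. Leaving out a library or a replicate number gave 0 to 3 in EphB2 + ephrin-B1 siRNA vs Ctrl, 0 to 2 in ephrin-B1 siRNA vs Ctrl, 0 to 1 in EphB2 + ephrin-B1 siRNA vs EphB2 and 0 to 0 in the others. Without replicate 3 in all groups no member passed (ATP5F1E in ephrin-B1 siRNA vs Ctrl at -1.01, adjusted p = 0.75 in edgeR). ATP5F1E passed in 24 of 26 alternatives in ephrin-B1 siRNA vs Ctrl and in EphB2 + ephrin-B1 siRNA vs Ctrl, and in 19 of 26 in EphB2 + ephrin-B1 siRNA vs EphB2, where EphB2 replicate 3 and EphB2 + ephrin-B1 siRNA replicates 2 and 3 each decided the call. Summed TPM in place of counts gave mitochondrial to nuclear ratios of 0.98, 0.90, 0.93 and 0.80 for EphB2 + ephrin-B1 siRNA, EphB2, ephrin-B1 siRNA and Ctrl. Leaving out single libraries gave 1.35 to 1.47, 1.18 to 1.54, 1.27 to 1.39 and 1.14 to 1.17 in the same order. Of 57 pairs of a named gene and a comparison over 1478 alternative fits, 8 fits turned the sign, all in EphB2 vs Ctrl. MT-CO1 had a log2 fold change of -0.027 by limma and -0.024 with the block but without replicate 3, and between -0.11 and 0.27 when libraries or replicate numbers were left out. MT-ND1 had -0.038 by limma and -0.24 with the block but without replicate 3, and between -0.24 and 0.51 when libraries or replicate numbers were left out. The block changed no call of the interaction. Leaving out libraries or replicate numbers kept MT-ND2 in EphB2 + ephrin-B1 siRNA vs Ctrl at 0.33 to 0.54 and MT-ND3 in ephrin-B1 siRNA vs Ctrl at 0.23 to 0.42, past the threshold in none of these.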
